A study of Mus musculus with 12 samples.

Results

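The 10 genes described here act where a cell with misfolded protein in its endoplasmic reticulum (ER) either restores protein synthesis or starts to die: *Trib3*, *Chac1*, *Ppp1r15a*, *Ppp1r15b*, *Bbc3*, *Pmaip1*, *Bcl2l11*, *Tnfrsf10b*, *Casp12* and *Bcl2*. They were taken by gene symbol from tables of 55536 genes, and all 10 were found. RNA of the thyroid was sequenced from 12 mice, with 1 library per mouse. The 5 affected mice were labelled with the thyroid dysplasia phenotype and the code TCW; the study describes them as Taconic mice of the B6NTac background and traces the dysplasia to a LINE-1 element in the thyroglobulin gene *Tg*. The 7 unaffected mice had a wild type phenotype. Of these, 6 carried the code CRW (Charles River mice of the B6NCrl background) and 1 carried the code TCK (a knockout mouse from Taconic without dysplasia). Any engineered mutation, the LINE-1 genotype of each mouse, and sex, age and batch are not in the labels. Background and phenotype divide the mice in the same way except for the TCK mouse, so background and phenotype cannot be told apart here.

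When misfolded protein collects in the ER, the kinase PERK phosphorylates the translation factor eIF2 alpha, which lowers protein synthesis while the transcription factors ATF4 and CHOP (gene *Ddit3*) are made. These factors raise genes that feed back on the response. If stress persists, the balance within the BCL2 protein family governs whether mitochondria release the factors that activate caspases: BCL2 itself protects the cell, while the BH3-only proteins PUMA, NOXA and BIM oppose it. The thyroid follicular cell secretes very large amounts of thyroglobulin through its ER.

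Affected thyroids had more RNA of 2 feedback genes, *Trib3* and *Ppp1r15a*, and less RNA of the survival gene *Bcl2* and of the BH3-only gene *Bcl2l11*. *Trib3* was 5.94-fold and *Ppp1r15a* 1.76-fold the unaffected level, and *Bcl2* was at 0.594 and *Bcl2l11* at 0.796 of it. The other 6 genes did not pass the threshold. All 10 genes passed the filter on low counts. Called means an adjusted p under 0.05 in edgeR's quasi-likelihood test over all 19661 genes tested. By that rule 4 of 10 members were called, beside 13.7% of all genes tested. In the higher direction it was 2 of 10, beside 7.63% of all genes, and in the lower direction 2 of 10, beside 6.1%. The median log2 fold change of the 10 genes was 0.33 and that of all genes tested was 0.01. The 5 affected mice all exceeded the 7 unaffected ones for *Trib3* and *Ppp1r15a*, as for 3.78% of all genes, and all fell short of them for *Bcl2*, as for 3.36%.

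Promoters of 3 members, *Trib3*, *Chac1* and *Ppp1r15a*, held a short match to a binding motif of stress transcription factors. They are shown with that of *Bcl2*, where none was found, because *Trib3*, *Ppp1r15a* and *Bcl2* had no overlap between groups and *Chac1* is a textbook target of ATF4. The windows come from RefSeq promoters of GRCm38.p6, from 250 bases before to 50 after the annotated start, and hold 7 of the 10 genes in 10 windows. Letters are 5′ to 3′ on the strand of the gene, in lower case, with each match in capitals, and the printed 280 or 250 bases leave out the end of each 300-base window. The motifs searched on both strands were the C/EBP-ATF composite TGATGNAA, the cyclic AMP element TGACGTCA, and the ER stress elements ERSE and ERSE-II. The composite was present in 3.97% of 32851 promoters of this length, the cyclic AMP element in 1.79%, ERSE in 0.119% and ERSE-II in 0.0365%.
Trib3 (chr2:152344031-152344310, minus strand): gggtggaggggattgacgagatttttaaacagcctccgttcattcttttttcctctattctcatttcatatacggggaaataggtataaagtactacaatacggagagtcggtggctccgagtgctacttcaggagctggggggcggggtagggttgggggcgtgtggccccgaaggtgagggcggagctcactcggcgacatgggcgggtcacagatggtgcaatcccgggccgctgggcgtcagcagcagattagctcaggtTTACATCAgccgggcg
Chac1 (chr2:119350992-119351241, plus strand): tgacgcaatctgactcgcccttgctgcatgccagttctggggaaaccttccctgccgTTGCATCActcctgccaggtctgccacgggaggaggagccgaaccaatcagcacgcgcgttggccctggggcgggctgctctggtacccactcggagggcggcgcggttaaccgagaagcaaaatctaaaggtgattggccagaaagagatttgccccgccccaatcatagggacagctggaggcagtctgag
Ppp1r15a (chr7:45526269-45526518, minus strand): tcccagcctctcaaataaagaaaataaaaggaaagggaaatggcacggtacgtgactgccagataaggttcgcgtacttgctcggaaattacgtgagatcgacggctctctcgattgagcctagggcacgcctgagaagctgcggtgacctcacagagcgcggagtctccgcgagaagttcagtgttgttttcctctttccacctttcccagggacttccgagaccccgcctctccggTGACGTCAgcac
Bcl2 (chr1:106714291-106714540, minus strand): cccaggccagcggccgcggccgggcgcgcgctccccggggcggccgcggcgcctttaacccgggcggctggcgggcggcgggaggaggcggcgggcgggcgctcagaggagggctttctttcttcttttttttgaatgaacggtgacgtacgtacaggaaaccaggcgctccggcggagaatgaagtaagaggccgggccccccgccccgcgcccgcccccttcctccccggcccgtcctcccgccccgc

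The capitals of *Trib3* and *Chac1* are the composite read on the opposite strand, at positions 15 and -193 from the RefSeq start. The match of *Trib3* lies upstream of the start that GENCODE gives. The capitals of *Ppp1r15a* are the cyclic AMP element, at position -12. A match is a description of the letters, and binding was not measured in these mice.

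*Trib3* (chr2:152337422-152344032) encodes a pseudokinase that is induced by ATF4 and CHOP and holds back both ATF4 and AKT signalling. Its level in affected mice was 21.4, 36.4, 15.4, 32.7 and 11.2 CPM (read counts scaled to library size, with TMM factors) in replicates 1, 3, 4, 5 and 6. The unaffected mice ran from 2.98 to 4.88 CPM, with a median of 4.2. All affected mice were higher, and replicates 3 and 5 stood above the other three. The means were 23.4 ± 10.9 (SD, n = 5) and 3.93 ± 0.681 CPM (SD, n = 7), a log2 fold change of 2.57 ± 0.27 (SE) with a 95% interval from 1.99 to 3.15 and an adjusted p of 0.000131 by edgeR.

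*Ppp1r15a* (chr7:45522916-45526268) encodes GADD34, the inducible subunit that directs protein phosphatase PP1 to eIF2 alpha and so restores translation. Its level in affected mice was 26.5, 32.2, 44.3, 35.3 and 27.4 CPM in replicates 1, 3, 4, 5 and 6, and in unaffected mice it ran from 14.0 to 24.3 with a median of 18.5. The groups did not overlap, although affected replicate 1 and the highest unaffected mouse were close. The log2 fold change was 0.82 ± 0.16 (SE), with a 95% interval from 0.47 to 1.16 and an adjusted p of 0.00572 by edgeR. Without the 6 mice with most skeletal muscle markers, which left 3 per group, it was 1.17 and the call was lost (adjusted p = 0.0685 by edgeR). *Ppp1r15b* (chr1:133131143-133139783) encodes CReP, the partner of the same phosphatase that is made without stress. It ranged from 77.9 to 120 CPM in affected and from 79.3 to 101 CPM in unaffected mice, with full overlap. The log2 fold change was 0.12, with a 95% interval from -0.1 to 0.34 (adjusted p = 0.474 by edgeR).

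*Chac1* (chr2:119351229-119354381) encodes a gamma-glutamylcyclotransferase that breaks down glutathione. Its level was 5.76, 12.1, 3.45, 10 and 25.8 CPM in affected replicates 1, 3, 4, 5 and 6, and ran from 0.666 to 16.0 CPM, with a median of 2.55, in unaffected mice. The groups overlapped widely: the highest unaffected level was 24.0 times the lowest. The SD of its log2 CPM between unaffected mice stood at percentile 98.2 of all genes tested. The log2 fold change was 1.27 ± 0.78 (SE), with a 95% interval from -0.43 to 2.97, and did not pass the threshold (adjusted p = 0.311 by edgeR).

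In unaffected mice the spread of *Chac1* went with the amount of skeletal muscle RNA in the library. The 7 skeletal muscle markers summed to 27232 CPM in affected replicate 6, which had the highest *Chac1* level, and to 11846 CPM in unaffected replicate 22, which had the second highest. Among unaffected mice, replicates 22, 25, 21, 23 and 24 had the same order for *Chac1* and for the muscle sum, which fell from 11846 to 9365, 5092, 4474 and 546 CPM. Replicates 14 and 26 were lowest in both, with muscle sums of 3.33 and 1.59 CPM and *Chac1* levels of 0.666 and 0.669 CPM. The affected mice did not keep that order: replicate 3, with a muscle sum of 183 CPM, had more *Chac1* than replicate 5, with 1242 CPM. Replicate 1, with a muscle sum of 11.4 CPM, had 5.76 CPM of *Chac1*, above the 3.45 CPM of replicate 4, with 93 CPM. Affected replicates 1, 3 and 4, with muscle sums of 11.4, 183 and 93 CPM, had 3.45 to 12.1 CPM of *Chac1*, while the unaffected mice with sums up to 546 CPM had 0.666 to 1.32 CPM. With the muscle markers as a covariate, a fit chosen after these levels were seen, the log2 fold change of *Chac1* was 1.93 (adjusted p = 0.0151 by edgeR). Without the 6 mice with over 1000 CPM of muscle markers, also chosen afterwards, it was 3.0 with 3 mice per group and did not pass (adjusted p = 0.0743 by edgeR). The comparison of mice with little muscle RNA was likewise made after the levels were seen. The covariate fit takes the same slope in both groups, although the affected mice did not keep the unaffected order. What part muscle RNA had in the *Chac1* result was therefore not tested.

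**Figure D1:**
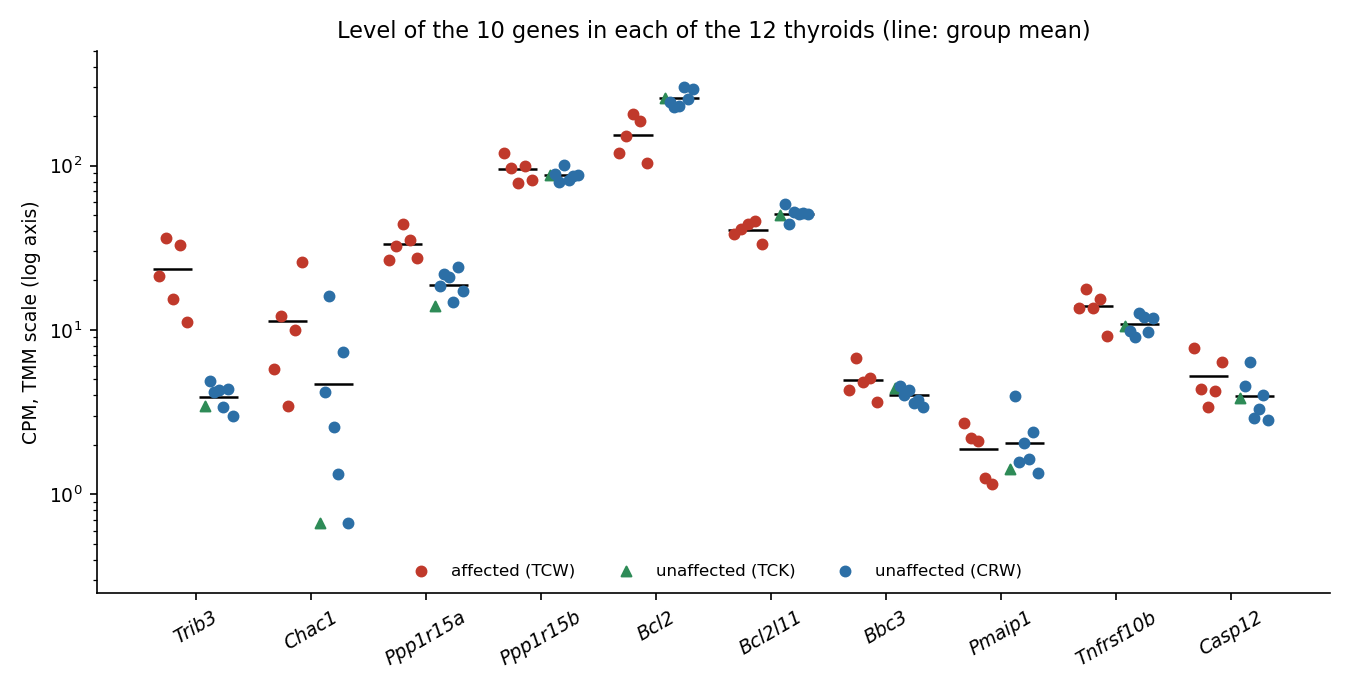
Level of each gene in every mouse, in CPM on a log axis, with affected mice (TCW) in red, unaffected CRW mice in blue, the unaffected TCK mouse as a green triangle and the group mean as a line. *Trib3* and *Ppp1r15a* lie higher and *Bcl2* lower in all 5 affected mice, and *Chac1* spreads from 0.666 to 16.0 CPM among unaffected mice.

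*Bcl2* (chr1:106538178-106714274), whose protein blocks the release of cytochrome c from mitochondria, was the member with the highest level per length in both groups. Its level was 119, 151, 207, 187 and 104 CPM in affected replicates 1, 3, 4, 5 and 6 and ran from 228 to 300 CPM, with a median of 254, in unaffected mice. Every affected mouse was lower, and replicates 1 and 6 were lowest. The means were 153 ± 43.7 (SD, n = 5) and 258 ± 28.2 CPM (SD, n = 7), a log2 fold change of -0.75 ± 0.16 (SE) with a 95% interval from -1.1 to -0.41 and an adjusted p of 0.00894 by edgeR. In a bulk sample, fewer cells that carry *Bcl2* and less *Bcl2* RNA per cell cannot be told apart.

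Some lymphocytes are known for high *Bcl2*, and T cell markers differed between libraries. Their sum was 332 CPM in unaffected replicate 14 and 351 CPM in unaffected replicate 21, beside 6.04 to 7.36 CPM in the other unaffected mice and 5.06 to 64.5 CPM in affected mice. The same mice had the highest sums of cycling cell markers, 100 and 75.3 CPM. The stage of their T cells, and its *Bcl2* level, was not examined. In replicates 14 and 21 the level of *Bcl2* was 258 and 244 CPM, inside the range of the other unaffected mice. Without both mice the log2 fold change was -0.77 (adjusted p = 0.0272 by edgeR), and with 3 mice per group, without those with most skeletal muscle markers, it was -0.82 and no longer called (adjusted p = 0.123 by edgeR). The B cell markers summed to 266 CPM in affected replicate 1 and to 11.6 to 15.8 CPM in the other affected mice. With the T cell or the B cell markers as a covariate the log2 fold change of *Bcl2* was -0.76 or -0.74. The highest T cell sums came from unaffected replicates 14 and 21 alone and the highest B cell sum from affected replicate 1. These fits therefore cannot decide what part lymphocytes had in the *Bcl2* result. The 9 follicular cell markers, a sum made up mostly of *Tg*, came to 101226, 184135, 256670, 199997 and 119789 CPM in affected replicates 1, 3, 4, 5 and 6, beside 210961 to 304653 CPM in unaffected mice. Replicates 4, 5 and 3 led for this sum as for *Bcl2*, in the same order, and replicates 1 and 6 were lowest in both. Its part in the *Bcl2* result was not tested.

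**Figure D2:**
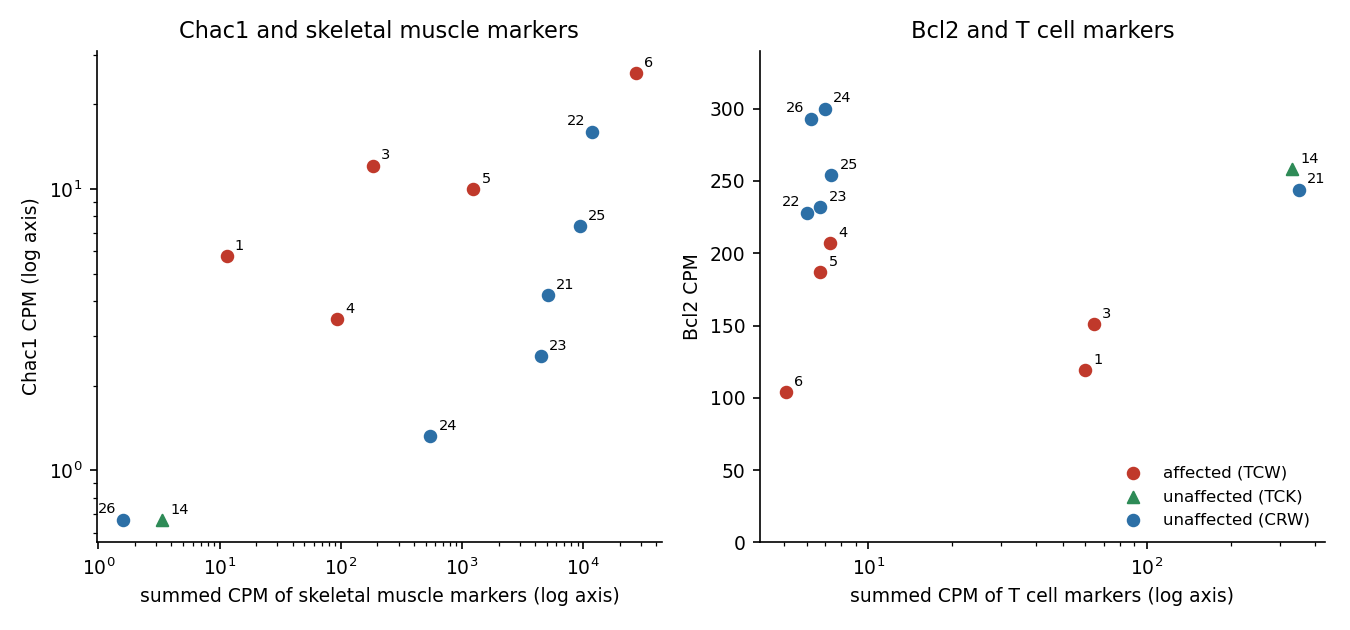
Left, *Chac1* CPM against the summed CPM of 7 skeletal muscle markers, both on log axes; right, *Bcl2* CPM on a linear axis from 0 against the summed CPM of T cell markers on a log axis, with 1 point per mouse labelled by its replicate number. Unaffected mice with more muscle RNA have more *Chac1*, except that replicates 14 and 26, lowest on both axes, trade places, and unaffected replicates 14 and 21 lie inside the *Bcl2* range of the other unaffected mice.

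Of the 3 BH3-only genes, 1 was called, in the lower direction. *Bcl2l11* (chr2:128126038-128162547) encodes BIM, which binds BCL2 and its relatives and can activate BAX. Its level was 38.2, 41.1, 44.4, 45.8 and 33.4 CPM in affected replicates 1, 3, 4, 5 and 6, and ran from 44.1 to 58.3 CPM, with a median of 50.4, in unaffected mice. The ranges met only through unaffected replicate 22, which lay below affected replicates 4 and 5. The log2 fold change was -0.33 ± 0.09 (SE), with a 95% interval from -0.52 to -0.14 and an adjusted p of 0.0253 by edgeR. This call was lost without affected replicate 1 (adjusted p = 0.0544) or affected replicate 3 (adjusted p = 0.0525), and without the 2 mice with most T cell markers (adjusted p = 0.0717), by edgeR.

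*Bbc3* (chr7:16308393-16318205) encodes PUMA, a BH3-only protein induced by p53 and CHOP. Its level was 4.32, 6.71, 4.85, 5.09 and 3.63 CPM in affected replicates 1, 3, 4, 5 and 6, beside 3.39 to 4.54 CPM in unaffected mice. The affected mean lay above the unaffected one, with overlap, and the log2 fold change of 0.3 had a 95% interval from -0.02 to 0.62 (adjusted p = 0.196 by edgeR). *Pmaip1*, on chromosome 18, encodes NOXA, the BH3-only partner of MCL1. It had the lowest level per length of the 10 genes in both groups, with 1.16 to 2.71 CPM in affected and 1.34 to 3.96 CPM in unaffected mice. The log2 fold change of *Pmaip1* was -0.12, with a 95% interval from -0.79 to 0.54 (adjusted p = 0.835 by edgeR), and its sign turned without affected replicate 6 (0.02) or unaffected replicate 21 (0.12).

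*Tnfrsf10b* (chr14:69767472-69784411) encodes the death receptor for TRAIL, a known target of CHOP. Its level was 13.6, 17.8, 13.5, 15.5 and 9.14 CPM in affected replicates 1, 3, 4, 5 and 6, and ran from 9.09 to 12.6 CPM with a median of 10.5 in unaffected mice. All affected mice except replicate 6 lay above every unaffected mouse. The log2 fold change of 0.37 had a 95% interval from 0.05 to 0.68 and missed the threshold after adjustment (adjusted p = 0.114 by edgeR). Without affected replicate 6 it was 0.49 and past it (adjusted p = 0.0138 by edgeR). *Casp12* (chr9:5345430-5373032), a caspase of the ER membrane in rodents, ran from 3.40 to 7.73 CPM in affected and from 2.83 to 6.37 CPM in unaffected mice. The change was 0.4 on the log2 scale, with a 95% interval from -0.13 to 0.92 (adjusted p = 0.305 by edgeR).

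**Figure D3:**
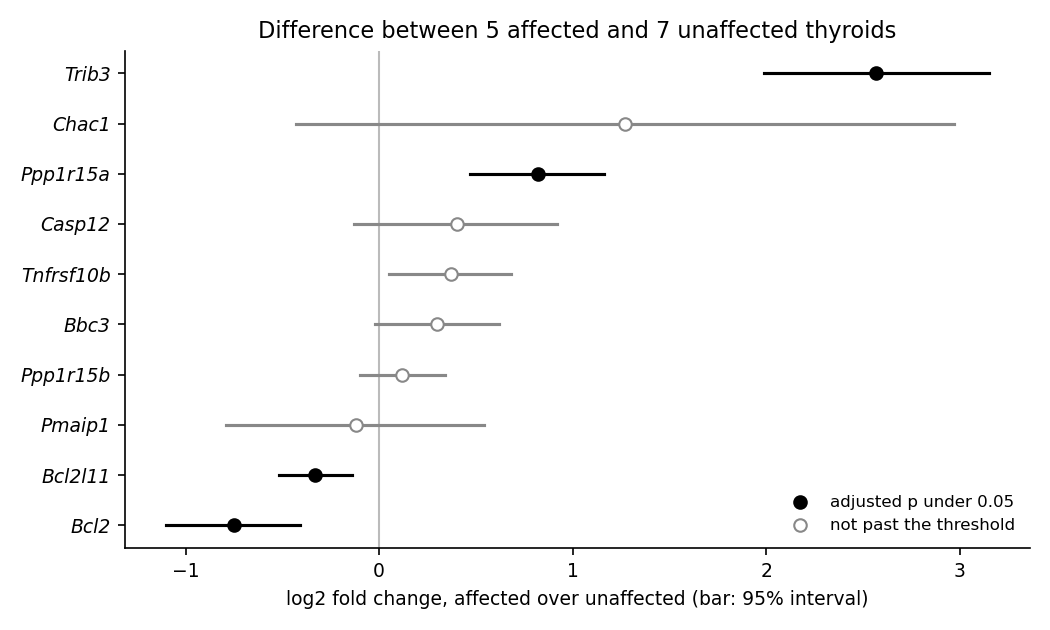
Log2 fold change of each gene, affected over unaffected mice, with its 95% interval as a bar; filled points passed an adjusted p of 0.05. The intervals of *Trib3* and *Ppp1r15a* lie above 0 and those of *Bcl2l11* and *Bcl2* below, while the interval of *Chac1* runs from -0.43 to 2.97.

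Levels were compared between genes by FPKM, which is scaled per length. Mean levels in unaffected mice fell from *Bcl2* (44.4 FPKM) through *Ppp1r15b* (16.3), *Bcl2l11* (15.6), *Ppp1r15a* (7.87), *Tnfrsf10b* (3.67), *Chac1* (2.82), *Bbc3* (2.47), *Casp12* (2.26) and *Trib3* (1.95) to *Pmaip1* (0.764 FPKM). In that order the ranges over mice of neighbours were apart between *Bcl2* and *Ppp1r15b*, between *Bcl2l11* and *Ppp1r15a* and between *Ppp1r15a* and *Tnfrsf10b*, and overlapped for the other pairs. In affected mice *Trib3* had 12.1 FPKM and the fifth place in place of the ninth, *Bcl2* still led with 25.6 FPKM, and only *Casp12* and *Pmaip1* were neighbours whose ranges lay apart. The ratio of *Bcl2* to *Bbc3* in FPKM was 8.1 ± 1.75 (SD, n = 5) in affected and 18.4 ± 3.51 (SD, n = 7) in unaffected mice, and the ranges did not meet. *Bcl2* alone already separated the groups, while *Bbc3* overlapped between them and was not called. The share of other gene pairs with ratios apart was not counted. The ratio of *Bcl2* to *Bcl2l11* was 2.08 ± 0.456 and 2.86 ± 0.348, and that of *Ppp1r15a* to *Ppp1r15b* 0.817 ± 0.276 and 0.488 ± 0.107, both with overlap.

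The affected mice did not rank alike for all genes. *Trib3*, *Tnfrsf10b* and *Ddit3* (CHOP) had the same order, from replicate 3 through 5, 1 and 4 to 6. The share of all genes with this order was not counted. *Atf3* (3, 5, 4, 1, 6) and *Atf4* (3, 5, 4, 6, 1) began with the same 2 mice and then differed from that order. *Ddit3* was 37.7, 67.0, 27.2, 49.9 and 15.4 CPM in replicates 1, 3, 4, 5 and 6, beside 5.45 to 7.37 CPM in unaffected mice. Replicate 6, whose skeletal muscle markers summed to 27232 CPM, had the lowest level among affected mice for 6 of the 10 genes and the highest for *Chac1*. The part of muscle RNA in these ranks was not tested. *Ppp1r15a* and *Bcl2* had replicate 4 in first place. Of all mice, replicate 4 had the lowest sums of parathyroid markers (29.4 CPM) and C cell markers (1037 CPM). Replicate 1 had the highest sum of fat markers (2711 CPM). The part of these tissues in the ranks was not tested either. The TCK mouse lay inside the range of the 6 CRW mice for 8 of the 10 genes and was lowest for *Chac1* (0.666 CPM) and *Ppp1r15a* (14.0 CPM).

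The transcript length implied by count and FPKM showed which transcripts the reads were assigned to. None of the 9 members with several transcripts differed without overlap, as 1.38% of the 12928 genes that could be compared did; *Chac1* has 1 transcript and was not compared. For *Trib3* it was 2025.9 to 2026.0 bases in unaffected mice, the length of its coding transcript of 2026 bases, and 1903.6 to 2026.0 bases in affected mice. In some affected mice a share of the *Trib3* reads was therefore assigned to a shorter transcript. Unaffected mice had only 41 to 100 *Trib3* counts, beside 203 to 841 in affected mice. Whether the lower counts alone left no reads for a shorter transcript was not tested. Exons of 3 members overlap a gene on the opposite strand, and the sources do not say if reads were counted by strand, so reads of such partners cannot be separated. *Bcl2* shares 558 bases with D630008O14Rik (2.54 to 7.51 CPM), *Ppp1r15b* 640 bases with Gm26616 (0.619 to 1.17 CPM) and *Ppp1r15a* 12 bases with *Tulp2*.

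Around these genes, 10 lists of related genes held 101 genes. Of these 97 were tested, 24 were higher, 5 were lower and 68 did not pass. The shares over all genes tested, 7.63% higher and 6.1% lower, are the background for this and for each list below. The lists and the members were chosen with results of these data known. Of 14 sensors and upstream transcription factors, 7 were higher and 1, *Eif2ak4*, was lower, with a median log2 fold change of 0.54. *Atf3*, a stress-induced repressor and activator, rose by 3.50 ± 0.48 (SE), *Ddit3* by 2.61 ± 0.28, *Atf5* by 2.31 ± 0.14 and *Atf4* by 0.84 ± 0.12 on the log2 scale. *Xbp1* (0.27, adjusted p = 0.152) and *Nfe2l2* (0.15, adjusted p = 0.539) did not pass edgeR's test. *Atf3*, *Ddit3* and *Atf5* are marked in the deposited table as confounded, which was read as exons that overlap another gene. Among the genes named as changed below, *Ppp1ca*, *Gclm*, *Oplah*, *Gsr*, *Bax*, *Tnfrsf23*, *Casp2*, *Cdkn1a* and *Pax8* carry the same mark. Its effect on their counts was not tested.

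Among subunits of eIF2, of its exchange factor eIF2B and of PP1, 2 of 11 were higher and none lower, with a median of 0.09. These were *Eif2s1*, which encodes eIF2 alpha (0.26), and the PP1 catalytic subunit *Ppp1ca* (0.20), while *Ppp1cb* (0.12) and *Eif2s3x* (0.05) did not pass. Of 11 other brakes of the response 3 were higher and none lower: *Dnajc3*, an inhibitor of PERK, at 1.39 ± 0.18 (SE), *Ptpn2* at 0.95 ± 0.19 and *Tmbim6* at 0.40 ± 0.10. *Ptpn1* (-0.28) and *Trib1* (-0.26), a relative of *Trib3*, did not pass. Of 9 genes of glutathione synthesis and breakdown, the pathway of CHAC1, 4 were higher and none lower: *Ggt1* (1.27), *Gclm* (0.70), *Oplah* (0.50) and *Gsr* (0.49). *Gclc* (0.22) and *Gss* (0.14) did not pass.

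In the BCL2 family outside the members, *Mcl1*, a survival protein, was the 1 of 5 tested survival genes that was higher (0.39 ± 0.10, SE), and *Bcl2l1* (-0.22) and *Bcl2l2* (0.08) did not pass. Of 5 other BH3-only genes *Bmf* was lower in every affected mouse (-0.73 ± 0.12, SE), while *Bad* (0.03) and *Bid* (-0.37) did not pass. The pore former *Bax* rose by 0.58 ± 0.12 (SE), and *Bak1* (0.17) and *Bok* (0.10) did not pass. The median was 0.29 for the survival genes, -0.36 for the BH3-only genes and 0.17 for the 3 pore formers. For the survival genes it was the value of *Bcl2a1d*, whose mean was only 0.696 CPM in affected and 0.571 CPM in unaffected mice.

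Of 12 tested genes of the death receptor pathway, *Tnfrsf23*, a decoy receptor, was higher (0.95 ± 0.18, SE) and *Tnfsf10*, the ligand TRAIL, was lower (-0.62 ± 0.13, SE), with a median of 0.16. *Cflar* (0.08) and *Tnfrsf1a* (0.09) did not pass. Of 15 tested caspases, apoptosome and IAP genes none was higher and *Casp2* was lower (-0.32 ± 0.10, SE), with a median of 0.02, and *Xiap* (-0.20) and *Birc2* (0.03) did not pass. Of 12 other p53 targets 5 were higher and 1, *Plk2*, was lower, with a median of 0.63. *Cdkn1a*, the cell cycle inhibitor p21, rose by 2.05 ± 0.18 (SE), *Ccng1* by 1.01 ± 0.23, *Aen* by 0.85 ± 0.16 and *Zmat3* by 0.50 ± 0.12 on the log2 scale, and *Mdm2* was the fifth. *Trp53inp1* (0.48) and *Perp* (0.22) did not pass.

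**Figure D4:**
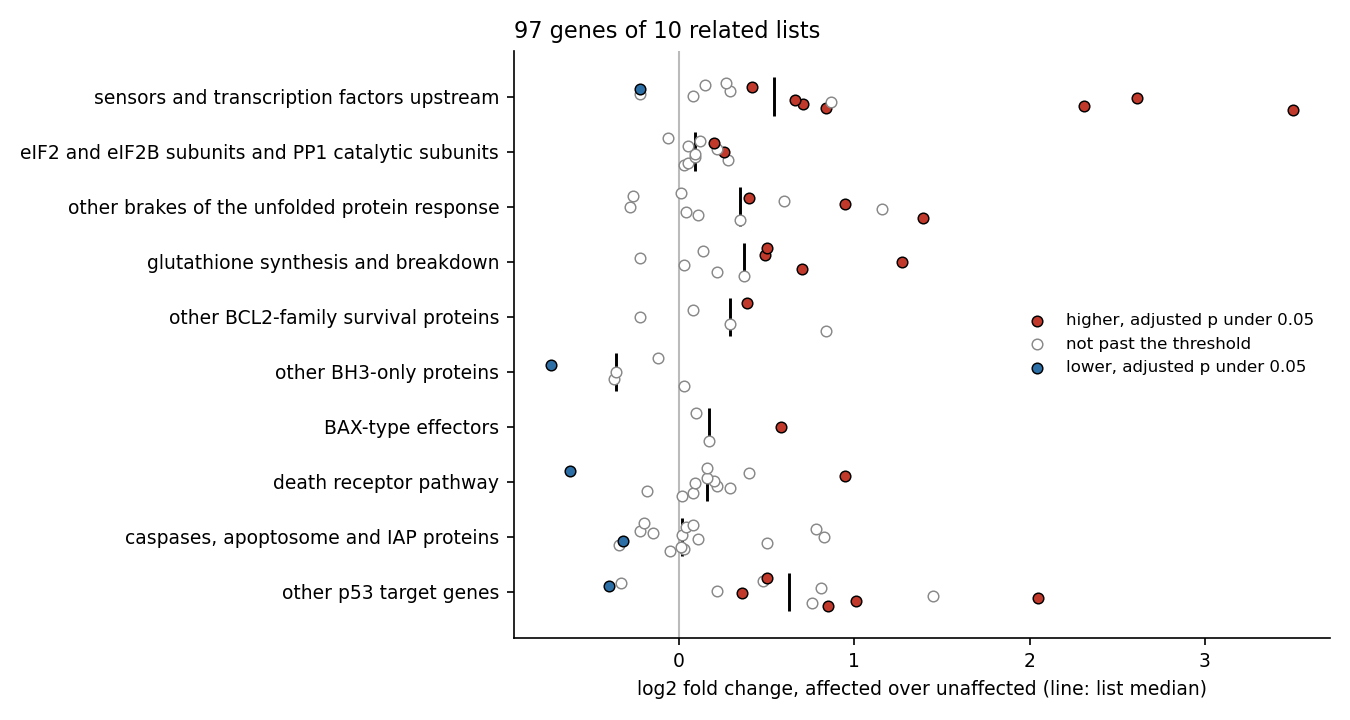
Log2 fold change, affected over unaffected mice, of the 97 tested genes in 10 related lists, 1 point per gene, with the list median as a line; red points were higher and blue points lower at an adjusted p under 0.05. The upstream list reaches 3.50 (*Atf3*), and the caspase list has no point in red.

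Library totals were 20170500 to 23319948 counts in affected and 11434901 to 22401136 in unaffected mice, with the TCK mouse lowest. *Tg* (100305 to 302995 CPM), which defines the follicular cell, was high in all 12 libraries, and of 9 follicular markers only *Pax8* was called, lower by log2 -0.81. Of 10 macrophage markers 4 were higher, with sums of 185 to 290 CPM in affected and 106 to 221 CPM in unaffected mice, and of 6 fibroblast markers 2 were higher. Their part in the results above was not tested. Cycling cell markers summed to 100 and 75.3 CPM in unaffected replicates 14 and 21, beside 16.8 to 29.9 CPM in affected mice and 4.47 to 7.92 CPM in the other unaffected mice.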

How the data were processed

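Thyroid RNA of 12 mice was depleted of ribosomal RNA and sequenced, and the authors used OmicSoft Array Studio, with an Ensembl annotation of GRCm38, for alignment and quantification. The authors deposited estimated counts per gene, not normalized, of which 81.3% to 84.9% per mouse were whole numbers, and FPKM values. Counts were rounded, filtered with filterByExpr (minimum count 10, leaving 19661 genes), scaled by TMM and compared by the quasi-likelihood test of edgeR 4.0.16 (R 4.3.3), affected against unaffected, without covariates. P-values were adjusted by Benjamini-Hochberg, with a threshold of 0.05. The SE was derived from the log2 fold change and its F statistic. FPKM and implied transcript lengths were described without a test. In simulated data of this comparison with 19661 genes, 200 genes were changed, by 2-fold or 4-fold. The test recovered 62% of the 2-fold and 93% of the 4-fold changes, and 3.73% of calls were false. Genes were drawn independently from the fitted model, without differences in tissue content between mice. These shares therefore do not measure errors among the calls of the real data.

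The members and lists were chosen with earlier results of these data known. Named genes are all members, *Ddit3* and *Atf4*, and from each list at most 4 with the largest change past the threshold and 2 with the highest mean CPM not past it. *Eif2ak4*, *Plk2*, *Mdm2* and *Pax8* were named after their values were seen. Alternatives were DESeq2 1.42.0, other scalings and filters, limma 3.58.1 on log2(FPKM + 1) or + 0.1, marker or *Xist* covariates, and each mouse left out; 3 more were added after the marker levels were seen. All intervals rest on spread between these mice.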

Additional observations from a re-analysis of the deposited data

Results flagged for a closer look

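The *Pmaip1* level of unaffected replicate 21 stood apart from the other unaffected mice at 3.96 CPM, with the nearest mouse at 2.38 CPM (gap over range 0.603, above Dixon's critical value of 0.568 for 7 mice). It was 1 of 20 groups of values examined, and chance gives about 1 in 20. The same mouse had 351 CPM of T cell markers, while replicate 14, with 332 CPM, had 1.42 CPM of *Pmaip1*.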

How the results depend on the processing

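Of 269 values of the 10 genes over 27 alternatives, 254 kept direction and side of the threshold. This includes the 6 members that were not called, wherever they stayed uncalled with the same sign. In 12 of the 27 alternatives 1 mouse was left out of the same fit. Of the 4 called members, *Trib3* kept its call in all 27, *Ppp1r15a* and *Bcl2* each lost it in 1, and *Bcl2l11* lost it in 6. *Bcl2l11* lost its call without TMM factors (adjusted p = 0.0655) and by limma on log2(FPKM + 1) without filter (0.0753), beside the mice left out above. Signs turned for *Ppp1r15b* with library totals without *Tg* (-0.01, a scaling that moves the median of all genes by -0.138; relative to it the value was 0.13) and for *Pmaip1* without affected replicate 6 (0.02), without unaffected replicate 21 (0.12; -0.29 to 0.12 over all mice left out), without the 2 mice with T cell markers over 100 CPM (0.08) and without the 6 mice with muscle markers over 1000 CPM (0.69). The latter 2 settings were chosen after seeing the data. Without the 6 muscle-rich mice, with 3 mice left per group, *Trib3* was called (2.92), while *Chac1* (3.0, adjusted p = 0.0743 by edgeR), *Ppp1r15a* (1.17, adjusted p = 0.0685 by edgeR), *Bcl2* (-0.82, adjusted p = 0.123) and *Bcl2l11* (-0.27, adjusted p = 0.183) were not. The count over all genes was then 162 in place of 2699 (119 higher, 43 lower), 1 member was higher and 0 lower (*Bcl2* and *Bcl2l11* had unadjusted p of 0.00607 and 0.018), and 6 list genes were higher and 0 lower; fewer mice were tested. Without the T cell-rich mice 771 genes were lower, 1 member lower and 3 list genes lower. With limma without filter 1339 genes were called (719 higher, 620 lower), 1 member was lower and 3 list genes were lower, and with filter 979 (+ 1) or 983 (+ 0.1) genes were higher. Without *Tg* in the totals 604 genes were higher and 1709 lower, in place of 1500 and 1199, and 14 list genes were higher; without TMM factors 1 member was lower. List genes lower numbered 9 by DESeq2, 8 with upper-quartile factors and 3 without a count filter. Leaving out 1 mouse gave 1774 to 3390 genes called (1002 to 1872 higher, 746 to 1518 lower), 2 to 3 members higher, 1 to 2 lower, and 19 to 27 list genes higher and 3 to 6 lower. *Chac1* had a log2 fold change of 0.73 without affected replicate 6 and 2.05 without unaffected replicate 22 (adjusted p = 0.0799 by edgeR), and could not be tested with at least 10 counts in every mouse. No paired analysis was possible because the groups are different mice and no matching between them is described. Low levels limit *Pmaip1*, at 1.16 to 3.96 CPM.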
